A study of Homo sapiens with 3 samples.

Results

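Complexes II to V of oxidative phosphorylation, with cytochrome c, are described here through the messenger RNAs of their nuclear genes in a pull-down of the RNA helicase DDX49. Members were the genes of the deposited table whose names begin with UQCR, COX4 to COX8 or ATP5, or are SDHA, SDHB, SDHC, SDHD, CYC1 or CYCS. This gave 45 of 13247 genes, of which 40 encode subunits, 1 is cytochrome c and 4 carry such a name without being an established subunit. The table uses older names for ATP synthase genes, and current symbols are used below. The cells are labelled HHL5, an immortalised human liver line, with the genotype given as WT. They were transfected with Flag-DDX49 and exposed to 1.5 mM OA/PA (2 to 1) for 24 h. OA/PA is read here as oleic and palmitic acid, fatty acids that load liver cells with fat. After ultraviolet cross-linking, RNA was recovered through the Flag tag and sequenced (RIP-seq). The series held 1 group of 3 replicate libraries. An input, a mock pull-down or an untreated sample was not analysed here, so a level joins the abundance of an RNA in the cell with its recovery, and no conditions were compared. Nothing in the labels says that the replicates came from separate cultures, and the spread between them may be technical.

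In mitochondria, complex II (succinate dehydrogenase) passes electrons from succinate to ubiquinone, complex III (the cytochrome bc1 complex) passes them on to cytochrome c, and complex IV (cytochrome c oxidase) hands them to oxygen. Complexes III and IV pump protons, and complex V (ATP synthase) lets the protons flow back to make ATP. Complex II is encoded by nuclear genes alone, whereas the other complexes join nuclear subunits to some that are encoded in mitochondrial DNA. Hepatocytes rely on this chain to oxidise fatty acids.

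The libraries held 2023133, 1461858 and 1096586 counts, and 1 count equalled 0.494, 0.684 and 0.912 CPM (counts per 1000000 counts of the library) in replicates 1, 2 and 3. CPM counts reads per gene without regard to length, so it does not rank genes by the number of molecules. Of the 10 hepatocyte markers examined 5 were in the table, and CPS1 had 1726 ± 45.9 CPM (SD, n = 3) while FGB had 0 counts and TF and APOA2 averaged 0.228 and 0.912 CPM. The epithelial keratins KRT7 and KRT8 had 5813 ± 143 and 6409 ± 619.5 CPM, KRT19 and the immune marker CD14 had 0 counts, and the endothelial markers ENG and CDH5 had 154 and 3.07 CPM. KRT8, KRT18 and KRT7 themselves differed between libraries, with KRT8 at 6860, 6664 and 5702 CPM. All libraries are labelled as HHL5 cells, and each level joins the abundance of an RNA with its recovery. A low marker level can reflect either, and bulk libraries do not separate cells.

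Most subunit messages were present in every library. Of the 45 members, 42 had a mean of at least 1 CPM and the same number had a count in each library. The members took 0.580%, 0.552% and 0.568% of all counts in replicates 1, 2 and 3, a mean of 0.567% ± 0.0140 (SD, n = 3). Their median gene had 70.1 CPM, against 16.8 CPM for all 13247 genes and 27.0 CPM for the 10815 genes averaging 1 CPM or more. Of the 40 subunits, 32 lay above that last value, 18 had at least 100 CPM and 8 lay below 20 CPM. The plot of levels by gene shows the spread within each complex.

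**Figure D1:**
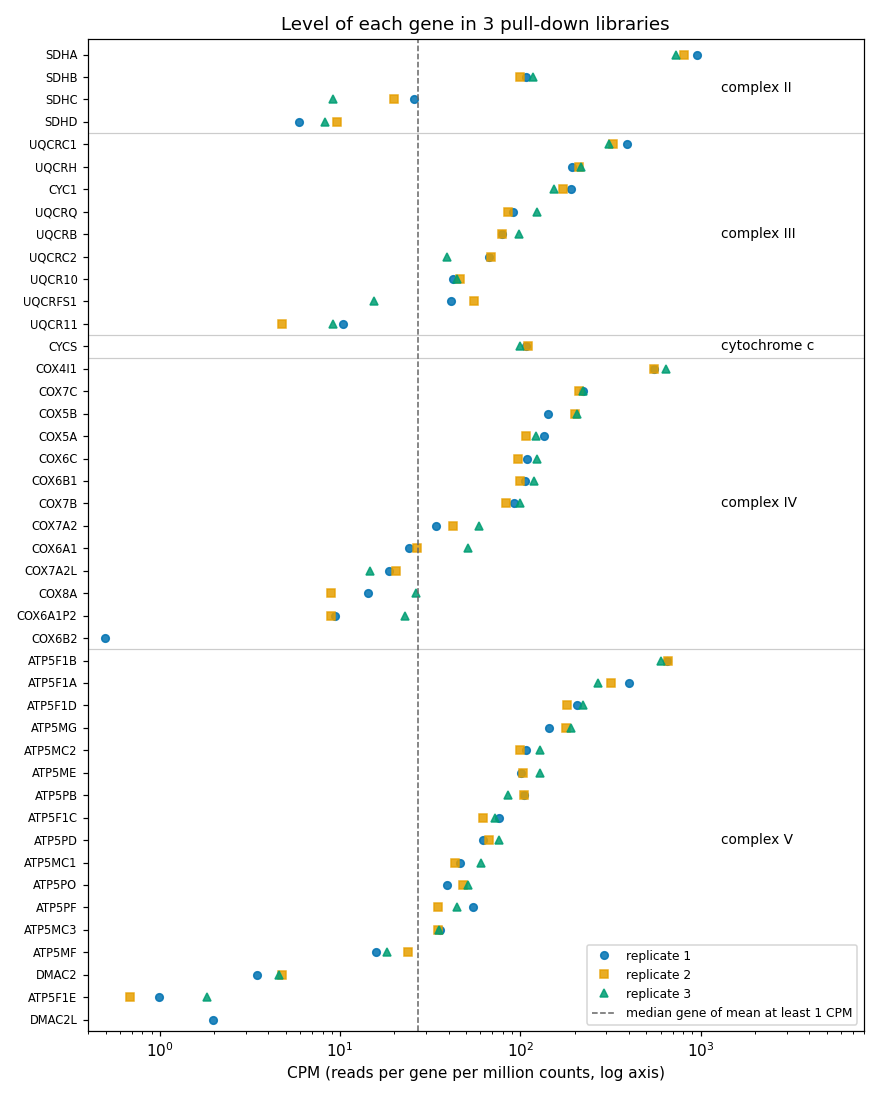
CPM of each member in each of the 3 libraries on a log axis, grouped by complex and ordered by mean. Points are single libraries, and values of 0 and ATP5MGL, with 0 counts throughout, are not drawn. The dashed line marks the median of the genes averaging 1 CPM or more, 27.0 CPM, and SDHA, ATP5F1B and COX4I1 lie furthest to the right.

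Complex II drew almost all its reads from 1 gene. SDHA, the flavoprotein that oxidises succinate (ENSG00000073578, chromosome 5 at 218320 to 268746 in GRCh38.p14), had 949, 808 and 725 CPM in replicates 1, 2 and 3. It took 86.0% ± 1.45 of the complex II counts (SD, n = 3) and had more reads than 98.9% of genes. SDHB, the iron-sulfur subunit, had 107, 99.9 and 117 CPM, so its 3 libraries lay close together. The membrane anchors had far fewer reads. SDHC had 25.7, 19.8 and 9.12 CPM, and SDHD had 5.93, 9.58 and 8.21 CPM, with only 12, 14 and 9 counts for SDHD. Both anchors lay below the median gene of 27.0 CPM in each library. The ratio of SDHA to SDHB counts was 8.88, 8.09 and 6.21. SDHA has 4 annotated pseudogenes, and the sources used here do not say how reads shared with them were assigned.

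Complex III was led by UQCRC1, one of the core proteins that face the matrix, with 389, 326 and 312 CPM. Its partner core protein UQCRC2 had 67.2, 69.1 and 39.2 CPM. UQCRC1 held 32.4% ± 2.53 of the complex III counts and UQCRC2 5.52% ± 1.45 (SD, n = 3). The catalytic subunits encoded in the nucleus differed as well. CYC1, the cytochrome c1 that passes electrons to cytochrome c, had 190, 172 and 154 CPM. UQCRFS1, the Rieske iron-sulfur protein, had 41.0, 55.4 and 15.5 CPM, so replicate 3 stood below both other libraries. Small accessory subunits spanned a wide range. The hinge protein UQCRH, which helps cytochrome c dock, had 207 ± 12.7 CPM. UQCRQ had 100.02 ± 20.2 CPM, UQCRB 85.4 ± 11.3 and UQCR10 44.4 ± 2.26 (SD, n = 3). UQCR11 was the lowest with 8.10 ± 2.93 CPM, from 21, 7 and 10 counts. The median complex III subunit lay 1.64 ± 0.23 log2 units above the median of genes averaging 1 CPM or more, and that of complex II 0.67 ± 0.27 above. Complex II has 4 genes, so its median is set by SDHB and SDHC, and its direction depends on the genes it is set against. It lay at -0.11 against genes averaging 10 CPM or more and at 1.31 against all genes. The other complexes kept a positive distance against both, at 0.85 and 2.28 for complex III, 1.07 and 2.50 for complex IV and 0.64 and 2.06 for complex V.

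Cytochrome c, the mobile carrier between complexes III and IV that also triggers apoptosis once released, was encoded by CYCS with 108, 110.1 and 99.4 CPM. The gene did not pass the test of a difference between libraries. CYCS has 45 annotated pseudogenes, the highest number among the members.

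Complex IV counts were led by COX4I1, the largest nuclear subunit and a site of regulation by ATP, with 550.1, 551 and 646 CPM. It held 38.0% ± 0.13 of the complex IV counts (SD, n = 3), with 37.9%, 38.0% and 38.2% in replicates 1, 2 and 3. COX7C followed with 223, 212 and 223 CPM and was also among the steadiest members. COX5B, a zinc-binding subunit on the matrix side, had 142, 202 and 207 CPM. Its partner COX5A, also on the matrix side, had 136, 108 and 122 CPM, so the ratio of COX5A to COX5B counts was 0.955, 0.536 and 0.590. Both genes stood above 100 CPM in each library, with replicate 1 the highest for COX5A and the lowest for COX5B. In the chi-square test between libraries described below, COX5B was called (adjusted p = 2.53e-04) and COX5A was not (adjusted p = 0.181). COX6C, COX6B1 and COX7B, small subunits around the core, had 110 ± 13.0, 108 ± 10.3 and 91.5 ± 8.35 CPM. COX7A2 (45.3 ± 12.8), COX6A1 (34.0 ± 14.8) and COX8A (16.6 ± 8.99) were lower and more variable. COX7A2L, a relative of COX7A2 that links complexes III and IV in supercomplexes, had 18.0 ± 3.05 CPM. The median complex IV subunit lay 1.85 ± 0.18 log2 units above the median of genes averaging 1 CPM or more (SD, n = 3).

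In complex V the catalytic head stood out. ATP5F1B, the beta subunit that carries the catalytic sites, had 647, 661 and 599 CPM. ATP5F1A, the alpha subunit, had 400, 319 and 270 CPM. The counts of ATP5F1A were 0.618, 0.483 and 0.451 times those of ATP5F1B. ATP5F1B held 31.9% ± 1.75 and ATP5F1A 16.5% ± 3.01 of the complex V counts (SD, n = 3). In the central stalk, the delta subunit ATP5F1D had 203 ± 20.7 CPM and the gamma subunit ATP5F1C, whose turning drives catalysis, had 70.1 ± 7.13 CPM (SD, n = 3). The epsilon subunit ATP5F1E had only 2, 1 and 2 counts, or 1.17 ± 0.590 CPM. It was the lowest of the complex V subunits and was too sparse to test. The gene (chromosome 20 at 59025475 to 59032335) overlaps SLMO2-ATP5E, a read-through transcript annotated as noncoding, and TUBB1 on the other strand. Whether reads were lost to these genes was not tested.

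The peripheral stalk, which holds the head still, was present throughout at moderate read counts. ATP5PB had 97.9 ± 11.4 CPM, ATP5PD 68.3 ± 6.80, ATP5PO 46.0 ± 6.23 and ATP5PF 44.6 ± 9.74 (SD, n = 3). Of the membrane subunits, ATP5MG had 144, 179 and 192 CPM and ATP5ME, which helps pair the enzyme into dimers, had 111 ± 15.2 CPM. ATP5MF had 19.3 ± 4.17 CPM, and its span overlaps that of the read-through gene ATP5MF-PTCD1. The median complex V subunit lay 1.42 ± 0.12 log2 units above the median of genes averaging 1 CPM or more. This distance was 1.43, 1.30 and 1.53 in the 3 libraries.

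The proton-carrying ring of complex V is built from 1 protein that 3 genes encode, ATP5MC1, ATP5MC2 and ATP5MC3, which differ in the import signal that is cut off. ATP5MC2 took 56.8%, 56.0% and 57.3% of the reads of the 3 genes in replicates 1, 2 and 3, with Wilson intervals of 51.8 to 61.6, 49.9 to 61.9 and 51.1 to 63.3. ATP5MC1 took 24.5%, 24.3% and 26.8%, and ATP5MC3 took 18.8%, 19.7% and 15.9%. Within each gene the 3 intervals overlapped, while the intervals of ATP5MC2 lay above those of both other genes. RefSeq has 8, 5 and 0 pseudogenes named after ATP5MC1, ATP5MC2 and ATP5MC3. How reads shared with these copies or among the genes were assigned is unknown, and the intervals do not cover it. ATP5MC3 was the steadiest tested member, at 35.6, 34.9 and 35.6 CPM.

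**Figure D2:**
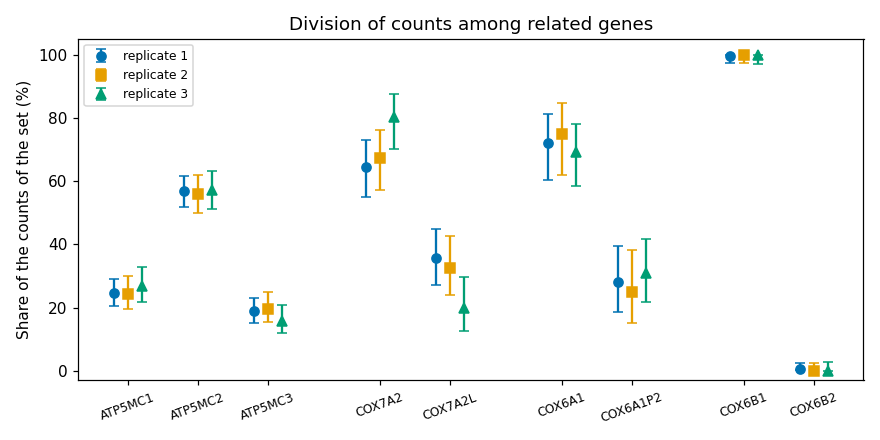
Share of the reads of each set of related genes that each gene took, per library, with 95% Wilson intervals as bars. ATP5MC2 lies between 56.0% and 57.3% in all 3 libraries, and COX6B1 took all or nearly all reads of its pair.

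Other related genes divided their reads unevenly. COX6B1 had 214, 145 and 131 counts, against 1, 0 and 0 counts for COX6B2, its testis form. Against a limit of 3 counts per library, COX6B1 counts were at least 48.3-fold and 43.7-fold higher in replicates 2 and 3, where COX6B2 had none. COX7A2 took 64.5%, 67.4% and 80.2% of the reads it shared out with COX7A2L, and these intervals overlapped. COX4I2, COX6A2, COX7A1, COX7B2, COX8C and UQCRHL were not analysed here.

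The 4 members that are not established subunits had few reads. COX6A1P2, which RefSeq annotates as a pseudogene of COX6A1 and the table as protein-coding, had 19, 13 and 25 counts. It took 27.9%, 25.0% and 30.9% of the reads counted for the pair, and how reads common to both copies were split is unknown, so both levels are uncertain. ATP5MGL, a copy of ATP5MG, had 0 counts in each library, so levels of up to 1.48, 2.05 and 2.74 CPM, the worth of 3 counts, remain possible. DMAC2L and DMAC2, mitochondrial proteins once named ATP5S and ATP5SL, had 0.659 ± 1.14 and 4.27 ± 0.710 CPM (SD, n = 3). Some subunit genes escape the name pattern. COXFA4, listed as NDUFA4 and now counted as a complex IV subunit, had 28.2, 35.6 and 44.7 CPM and did not pass the test between libraries described below. The ATP synthase inhibitor ATP5IF1 had 559, 568 and 661 CPM, and the small subunits ATP5MJ and ATP5MK had 86.9 ± 25.2 and 26.3 ± 13.3 CPM. These 3 genes did pass that chi-square test (adjusted p = 0.0105, 4.56e-04 and 1.34e-03). Thus 3 of the 4 genes outside the pattern were called, against 19.6% of all genes tested. ATP5MJ had 61.8, 86.9 and 112 CPM, and ATP5MK 34.1, 10.9 and 33.7 CPM.

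Replicates of the same group differed in a sizeable part of these genes. A chi-square test set the 3 counts of each gene against the library totals, for genes with 30 counts or more in all. It called 14 of 40 members (35.0%) at a Benjamini-Hochberg threshold of 0.05, against 19.6% of all 8633 genes tested. The same test called 9 of 29 genes with complex I names and 9 of 65 with mitochondrial ribosomal protein names, so a share near that of the members was also seen in complex I. The median chi-square value was 4.61 for the members and 3.81 for all tested genes. A chi-square test on counts detects smaller differences in genes with more reads. The median member had 70.1 CPM, against 27.0 CPM for genes averaging 1 CPM or more. The part of read number in the share called was not tested. Called members differed 1.17-fold to 3.57-fold between the highest and the lowest library, and the 26 others 1.02-fold to 2.17-fold. With a minimum of 10 or 100 counts in all, 14 of 41 and 11 of 33 members were called, against 17.1% and 22.7% of genes. With edgeR's TMM or DESeq2's size factors 13 of 40 were called, against 18.6% and 18.5%, and SDHC was lost. Calls also rested on single libraries, since 6 of 38 remained called without replicate 1 (6.77% of genes), 12 of 39 without replicate 2 (16.6%) and 4 of 38 without replicate 3 (5.8%). The last 4 were ATP5F1A, COX5B, SDHA and UQCRC1. The test compares libraries of 1 group, not conditions.

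The called members split by direction. In 6 of them replicate 3 was the lowest library, namely SDHA, SDHC, UQCRC1, UQCRC2, UQCRFS1 and ATP5F1A. Members of like role were not called. Among these, SDHB was highest in replicate 3 and SDHD lowest in replicate 1, while CYC1 and ATP5F1B were lowest in replicate 3. UQCRFS1 differed 3.57-fold (adjusted p = 1.75e-04 in the chi-square test), SDHC 2.82-fold (adjusted p = 0.042) and UQCRC2 1.76-fold (adjusted p = 0.025). ATP5F1A, SDHA and UQCRC1 differed 1.48-fold, 1.31-fold and 1.25-fold, each with replicate 1 highest. In the other 8 called members, replicate 3 was the highest library. These were COX4I1, COX5B, COX6A1, COX7A2 and COX8A of complex IV, the copy COX6A1P2, UQCRQ of complex III and ATP5MG of complex V. COX8A had 14.3, 8.89 and 26.4 CPM, and COX6A1 had 24.2, 26.7 and 51.1 CPM. COX7A2 had 34.1, 42.4 and 59.3 CPM, so replicate 3 stood above the other libraries in each of these 3 genes. The highest library was replicate 1 in 4 of the 14 called members, replicate 2 in 2 and replicate 3 in 8. Over all 1691 called genes the shares were 45.6%, 20.4% and 34.0%, which is 8.93%, 4% and 6.66% of all genes tested. The lowest was replicate 1 in 5 of the 14, replicate 2 in 3 and replicate 3 in 6. Over all called genes the shares were 31.1%, 22.9% and 46.0%, which is 6.09%, 4.48% and 9.01% of all genes tested. A lowest value in replicate 3 was thus about as common among all called genes as among the called members.

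**Figure D3:**
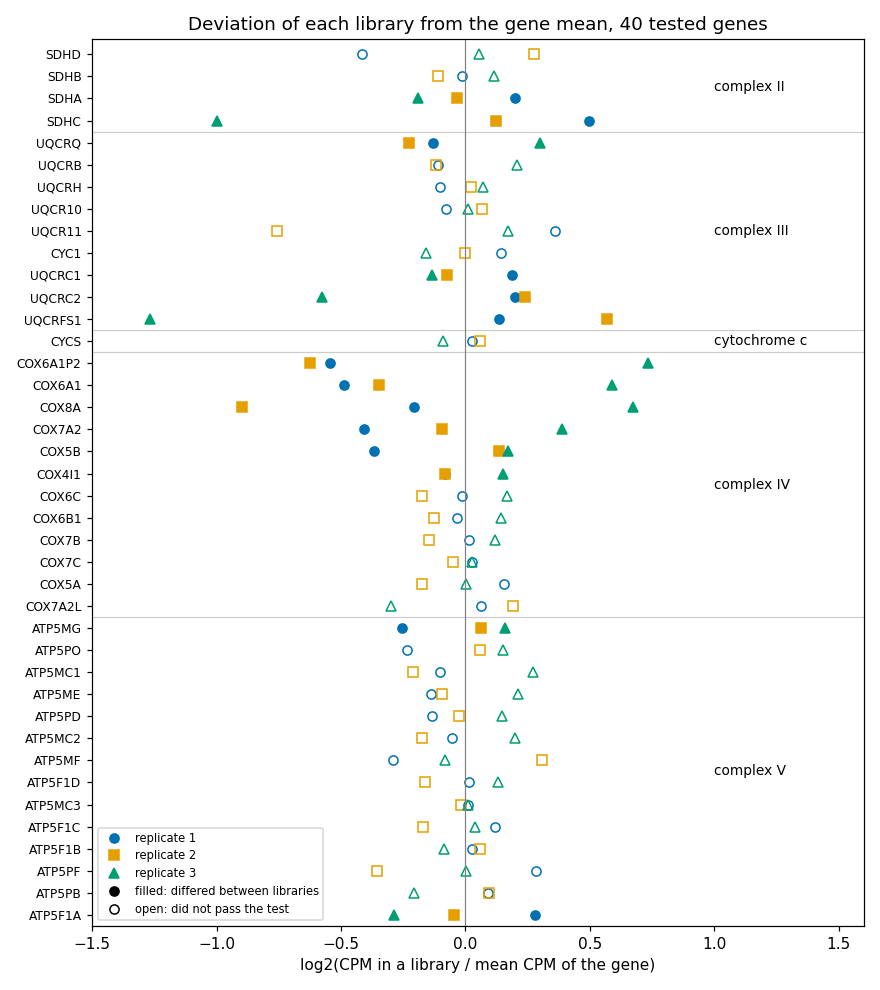
Deviation of each library from the mean of the gene, as log2 of the CPM ratio, for the 40 tested members by complex. Filled points mark the 14 genes that differed between libraries in the chi-square test and open points the 26 that did not pass, and the triangles of replicate 3 lie to the right for the called complex IV genes and to the left for SDHA, SDHC, UQCRC1, UQCRC2, UQCRFS1 and ATP5F1A.

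The summed shares of 2 complexes also moved between libraries. Complex II subunits took 0.109%, 0.0937% and 0.0859% of all counts in replicates 1, 2 and 3, with Wilson intervals of 0.104 to 0.113, 0.0889 to 0.0988 and 0.0806 to 0.0916. Complex IV subunits took 0.145%, 0.145% and 0.169%, and the interval of replicate 3, 0.162 to 0.177, lay above those of the other libraries. Complex III subunits took 0.110%, 0.105% and 0.101%, and complex V subunits 0.204%, 0.196% and 0.198%, with overlapping intervals for each. A comparison without the called genes was added after the values were seen. The remaining 2 complex II genes took 0.0113%, 0.0109% and 0.0125%. The remaining 7 complex IV genes took 0.0686%, 0.0620% and 0.0702%, and the intervals overlapped for both. The genes left out had been called for differing between these same libraries, so this overlap was largely fixed in advance. Most complex II counts left with them, as the mean share fell from 0.0961% to 0.0116%. Reads of the mitochondrially encoded MT-CO3 were likewise highest in replicate 3, with 3062, 3686 and 4290 CPM, although complex IV did not differ between replicates 1 and 2. Library depth also differed, with replicate 3 the shallowest. The part of either in these differences was not tested.

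**Figure D4:**
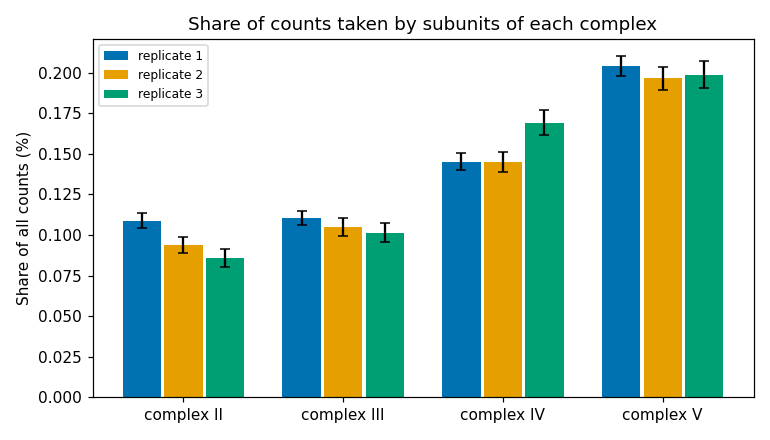
Share of all counts taken by the subunits of each complex in each library, with 95% Wilson intervals, which cover counting error only. Complex II lies highest in replicate 1 at 0.109% and complex IV highest in replicate 3 at 0.169%.

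Of the 6 mitochondrially encoded partners of complexes III to V, 3 were in the table. MT-CO3, a core subunit of complex IV, had 3679 ± 614 CPM, whereas MT-CO1, its catalytic subunit, had 2, 0 and 1 counts. MT-CYB of complex III had 75.6, 103 and 107 CPM (adjusted p = 0.0354 in the chi-square test). MT-CO2, MT-ATP6 and MT-ATP8 were not analysed here. Among the 3 measured, MT-CO3 thus held nearly all reads. How reads shared with other genes were counted is not stated, so the few MT-CO1 counts may not reflect the level of its RNA.

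By their medians, assembly factors had fewer reads than subunits, though single genes overlapped. SDHAF1 (16.3 CPM) lay above the complex II subunit SDHD (7.91 CPM), and LRPPRC (121 CPM) above the complex IV subunit COX7A2 (45.3 CPM). The table held 42 of 47 listed factors, of which 39 averaged 1 CPM or more, with a median of 15.8 CPM for the 42, against 88.5 CPM for the 40 subunits. For complex IV, LRPPRC, which stabilises mitochondrial messages, had 121 ± 8.46 CPM, the copper chaperone SCO1 61.4 ± 11.3 and CMC2 50.2 ± 5.78 (SD, n = 3). For complex III, UQCC5, TTC19 and UQCC1 had 25.8 ± 3.37, 24.5 ± 1.31 and 11.8 ± 1.74 CPM, and UQCC2 had 0.228 ± 0.395 CPM. For complex V, TMEM70, which helps form the ring, had 22.9 ± 3.20 CPM, ATPAF1 18.2 ± 9.91 and ATPAF2 15.6 ± 2.07. For complex II, SDHAF1 had 16.3 ± 3.59 and SDHAF2 2.48 ± 0.438 CPM. Of 31 factors tested 6 differed between libraries, which is 19.4% and close to the 19.6% of all genes. ATPAF1 was lowest in replicate 3 (26.7, 20.5 and 7.30 CPM). COX10, which makes the heme of complex IV, was also lowest there (26.2, 21.9 and 8.21 CPM). BCS1L, UQCC6 and COX15 were highest in replicate 3, COX15 with 46.5, 29.4 and 67.5 CPM, and HIGD2A was highest in replicate 1.

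Regulators of respiratory genes were present apart from the coactivator PPARGC1A, which had 0 counts in each library. Of the 12 listed, 11 had a mean of at least 1 CPM, led by the transcription factor YY1 (239.7 ± 20.4 CPM), the mitochondrial RNA polymerase POLRMT (173 ± 15.4) and PPRC1 (33.0 ± 2.49), a relative of PPARGC1A. GABPA and NRF1, which bind the promoters of many respiratory genes, had 14.3 ± 2.48 and 12.6 ± 5.05 CPM. PPARGC1B, with 29.7, 13.0 and 5.47 CPM, was the 1 regulator of 11 tested that differed between libraries, against 19.6% of all genes.

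Subunits of complexes II to V also stood beside the other large mitochondrial sets of the table. Their median lay 1.65 ± 0.13 log2 units above that of genes averaging 1 CPM or more, against 0.20 ± 0.21 for 38 genes with complex I names and 0.60 ± 0.08 for 75 with mitochondrial ribosomal protein names (SD, n = 3). By current symbols COXFA4 and COXFA4L2 leave the first set and KGD4 the second, and the values were then 0.23 ± 0.18 for 36 genes and 0.61 ± 0.08 for 74. The distance was larger than in both other sets in each of the 3 libraries. With 3 libraries of 1 group this is a description and no test was made. Genes of these sets differ in length, which CPM does not account for.

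Many of the subunit genes have copies. In RefSeq, 30 of the 40 subunits have at least 1 pseudogene named after them and the median is 2.50, up to 18 for COX6C. Across the 40 subunits, Spearman's rho between this number and mean CPM was 0.13, and that between genomic span and mean CPM was 0.078. The genes share libraries and are not independent, so these are descriptions. The subunits lie on 20 chromosomes, with 5 on chromosome 19, and 33 do not overlap another protein-coding gene. The spans of UQCRQ, ATP5PD, ATP5F1E and ATP5PF meet a gene of the other strand (GDF9, KCTD2, TUBB1 and GABPA). UQCRC2, ATP5F1B and ATP5MF meet PDZD9, BAZ2A and ATP5MF-PTCD1, and the strand of at least 1 gene of each pair was not looked up here. Some spans also overlap annotated noncoding genes. Small nucleolar RNA genes overlap UQCRC1 (SNORA94), COX7C (SNORD138) and ATP5F1B (SNORD59A and SNORD59B), and a transfer RNA gene overlaps ATP5F1A. Long noncoding RNA genes overlap UQCRB, ATP5MC1, ATP5MG, ATP5F1C and ATP5F1E. Whether reads of these genes entered the counts was not tested.

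The promoters of these genes often hold a short sequence bound by ETS factors such as GABP. RefSeq promoter windows, from 250 bases before to 50 after the start, were found for 33 of the 41 subunit and cytochrome c genes. ATP5F1B, ATP5F1D, ATP5MC3, ATP5MF, COX6C, CYC1, SDHC and UQCRB had no entry. The letters CCGGAAG, on either strand, were in 14 of the 33 (42.4%), against 18.4% of 10415 promoters of genes in the table. The NRF1 motif, searched with the letters in the first block of capitals of SDHD, was in 2 (6.06% against 2.27%), SDHD and ATP5F1C. A 10-base YY1 motif around GATGGC was in 3 (9.09% against 2.72%), ATP5PF, SDHB and UQCRC1. GGGCGG, read by SP1, was in 57.6% against 69.3%, and CCAAT in 42.4% against 36.9%. These are matches of letters, not shown binding sites, and the RNA data do not measure the promoters. All motifs were searched on both strands. To show the arrangement, SDHD was taken as the gene that holds both the NRF1 and the ETS letters. COX5B, UQCRQ and COX8A were picked after their values were seen, as called genes highest in replicate 3 that hold the ETS letters. COX7A2, also called and highest in replicate 3, has no such letters in its window and is not shown. Stretches of 60 bases upstream of the start follow for SDHD, COX5B, UQCRQ and COX8A, with the NRF1 and ETS letters in capitals (GRCh38, strand of the gene, chr11:112086753-112086812, chr2:97646002-97646061, chr5:132866562-132866621 and chr11:63974560-63974619).
SDHD: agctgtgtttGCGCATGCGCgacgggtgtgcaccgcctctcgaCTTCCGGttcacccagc
COX5B: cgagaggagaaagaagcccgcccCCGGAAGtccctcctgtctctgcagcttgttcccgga
UQCRQ: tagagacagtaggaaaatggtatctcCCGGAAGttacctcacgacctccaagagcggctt
COX8A: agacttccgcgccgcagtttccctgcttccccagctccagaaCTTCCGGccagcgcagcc
In SDHD the NRF1 letters begin 110 bases and the ETS letters 77 bases before the start. In COX5B, UQCRQ and COX8A the ETS letters begin 37, 54 and 18 bases before it. In COX8A and SDHD they stand as CTTCCGG, the same letters read on the opposite strand.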

How the data were processed

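Raw counts per gene were deposited by the authors, per the file headers, for 3 RIP-seq libraries. Per the submitters' processing notes, CASAVA 1.4 and hg38 were used. The aligner, the counter and how it treated strand or shared reads are not stated in what was used here. Left unused were 3 per-sample columns of normalised values, made with edgeR per the file headers.

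Members were taken from the gene names of the table by a fixed pattern. Members and gene lists were chosen with earlier results of these data known, and all members are described. For the assembly factors of each complex and the regulators, the 3 highest genes and genes at 0 counts are named, as are all mitochondrially encoded genes. COXFA4 had been listed. The other genes named (UQCC2, assembly factors that differed between libraries, PPARGC1B, GABPA and NRF1, the cell markers, the ATP synthase genes outside the pattern, which were added, and genes that leave a comparison set by current symbol) were chosen after their values were seen. Current symbols, spans and promoter sequences came from NCBI RefSeq (GRCh38.p14). Counts were scaled to 1000000 per library (CPM), and 1 CPM was added before taking log2. A level per coding length had been planned, but no lengths were used here, so CPM took its place.

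Each gene with a summed count of at least 30 was tested with a chi-square test of its 3 counts against the library totals, with Benjamini-Hochberg adjustment over all 8633 such genes and a threshold of 0.05. The test was checked on simulated counts with counting (Poisson) error alone, which is the error the test itself assumes. It called 0 of 8620 genes without a change. Of genes changed in replicate 3, it called 76 of 100 at 2-fold and 100 of 100 at 4-fold. The check does not cover spread beyond counting error. Share intervals are 95% Wilson intervals. Since reads are not independent molecules, these intervals and the limits given for 0 counts reflect counting error alone. Alternatives were other pseudocounts, backgrounds, count minimums, size factors from edgeR 4.0.16 (TMM) and DESeq2 1.42.0, leaving out replicates and, added after the data were seen, shares without the called genes and comparison sets by current symbol. Tools were R 4.3.3 and Python 3.11.15 with pandas 2.3.3, scipy 1.17.1, matplotlib 3.10.9 and numpy 2.4.6.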

Additional observations from a re-analysis of the deposited data

How the results depend on the processing

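The number of members of at least 1 CPM (42) was 42 with TMM or DESeq2 size factors or with a count required in each library, and 41 to 42 with 1 replicate left out. The number that differed between libraries (14) was 14 and 11 with count minimums of 10 and 100 and 13 with TMM or DESeq2 size factors, and the genes called were among the same 14. SDHC was lost with either set of size factors. With 2 libraries it ranged from 4 to 12. It was 4 of 38 without replicate 3, against 5.8% of all genes, and 6 of 38 without replicate 1, against 6.77%, so replicates 1 and 3 carry most of these calls. The distance of each median from all genes depends on the background. With no filter it was 1.31, 2.28, 2.50 and 2.06 log2 units for complexes II, III, IV and V, and against genes of at least 10 CPM it was -0.11, 0.85, 1.07 and 0.64. Complex II thus changed sign there. Leaving out 1 replicate gave 0.53 to 0.80, 1.49 to 1.69, 1.74 to 1.89 and 1.35 to 1.44. Another pseudocount or size factor moved these by less than 1 SD. Leaving DDX49 out of the totals, which raises every other gene, put the share of the members at 0.592%, and leaving out 1 replicate at 0.560% to 0.574%. No paired analysis was possible because there is 1 group. Depth limits genes such as ATP5F1E, SDHD and UQCR11, with 38 counts or fewer in all.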

Other observations

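The members were also divided by whether their promoter window holds the ETS letters, a division made after the values were seen. It is given as values only, and no difference from other genes was tested. Of the 14 members with the letters 12 were higher in replicate 3 than in replicate 1, with a median difference of 0.31 log2 units. Of the 19 without them 8 were, with a median of -0.12. The 12 include UQCRQ, COX8A, COX5B, COX4I1, COX6A1 and ATP5MG, already called with replicate 3 highest. The contrast therefore rests in part on genes whose direction was known, and a link between promoters and libraries was not tested. Over all genes averaging 1 CPM or more the medians were -0.08 for 1749 genes with the letters and -0.08 for 6952 without, and 42.9% of each were higher in replicate 3.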
